A study of Mus musculus with 6 samples.

Results

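Elastic fibres let the lung stretch and recoil, and they are laid down on a scaffold of microfibrils. Fibrillins form the microfibrils, elastin is deposited on them as tropoelastin and crosslinked, and fibulins, LTBPs (latent TGF-β binding proteins) and microfibril-associated glycoproteins guide this assembly. LTBPs also hold TGF-β in an inactive complex in the matrix. In the embryonic lung these genes are transcribed mostly in mesenchyme, smooth muscle and vessel walls.

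The 10 genes described here are *Ltbp1*, *Ltbp2*, *Ltbp3*, *Ltbp4*, *Fbn1*, *Fbn2*, *Eln*, *Fbln5*, *Efemp2* and *Mfap4*, and all 10 were found by symbol among the 23420 genes of the table. The set was chosen on the normalized counts of these same control and mutant lungs, whose comparison was already known, so its differences between the groups are given below as a description and support no further statement. Whole embryonic mouse lungs were collected at E11.5dpc (*dpc*, *days post coitus*), and 3 or 4 lungs of the same genotype were combined into each pool. The 3 control pools were Raptorf/+; ShhCre/+ and the 3 mutant pools were Raptorf/f; ShhCre/+. *Rptor* (Raptor) encodes the scaffold subunit of mTORC1, and Cre made from the *Shh* locus is active in the lung epithelium, so the deletion is not directed at the mesenchyme. Every lung carried 1 copy of ShhCre and at least 1 floxed *Rptor* allele, the controls included, and none of the 6 pools lacked Cre.

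The deposited values are normalized counts, that is reads per gene after division by each library's size factor. They corresponded to between 20197642 and 21276090 reads per library, and 17499 to 17724 genes were above 0. The normalized count of *Rptor* in control pools 1 to 3 was 2126, 2193 and 2279, against 2023, 2137 and 2148 in the mutant pools, counted over the whole gene and over all cell types (log2 difference -0.06, limma adjusted p = 0.584). Control pool 3 lay farthest from the other pools of its group, with a median distance of 0.105 on the log2 scale against 0.0472 to 0.0871 for the other 5 pools. The labelled tissue was matched by its markers, since *Nkx2-1* of the lung epithelium had 1977 to 2686 and *Tbx4* of the lung mesenchyme 3045 to 4491 normalized counts in the 6 pools. The summed counts of 20 epithelial markers were 28483 to 32799 in control pools and 24057 to 25585 in mutant pools. Those of 18 mesenchymal markers were 45766 to 47307 in control and 49497 to 50828 in mutant pools, and those of 10 smooth muscle markers 10413 to 11807 and 12726 to 13745. Of these marker genes 0 were at a count of 0 in every pool. In whole lungs a different number of cells of a type and a different amount of RNA per cell cannot be told apart. The sex of the embryos in each pool is not given in the labels. *Xist*, transcribed in female cells, had the lowest log2 difference of all tested genes, -4.16 (limma adjusted p = 0.164). The Y-linked *Ddx3y* and *Uty* had 0.31 and 0.26 (limma adjusted p = 0.362 and 0.352). The part of embryo sex in the differences below was not tested.

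*Ltbp4* and *Ltbp3* were the members with separate groups. LTBP4 is a matrix protein needed for elastic fibre formation in the lung, and LTBP3 binds latent TGF-β. *Ltbp4* had 1841, 1894 and 1910 normalized counts in control pools 1 to 3, against 2539, 2486 and 2580 in mutant pools 1 to 3. All mutant pools lay above all control pools, and the spread inside each group was small, with an SD of 36.4 around a control mean of 1882 and of 47.1 around a mutant mean of 2535 (n = 3 pools each). The log2 difference was 0.43 with a standard error of 0.04, a 95% interval from 0.34 to 0.52 and a 1.35-fold ratio of the means. *Ltbp3* had 1510, 1684 and 1508 normalized counts in the controls, against 1864, 1989 and 1958 in the mutants. Control pool 2 was the highest control, and it still lay below every mutant pool. The means were 1567 ± 101 and 1937 ± 65.4 (SD, n = 3), a log2 difference of 0.31 with a standard error of 0.06.

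**Figure D1:**
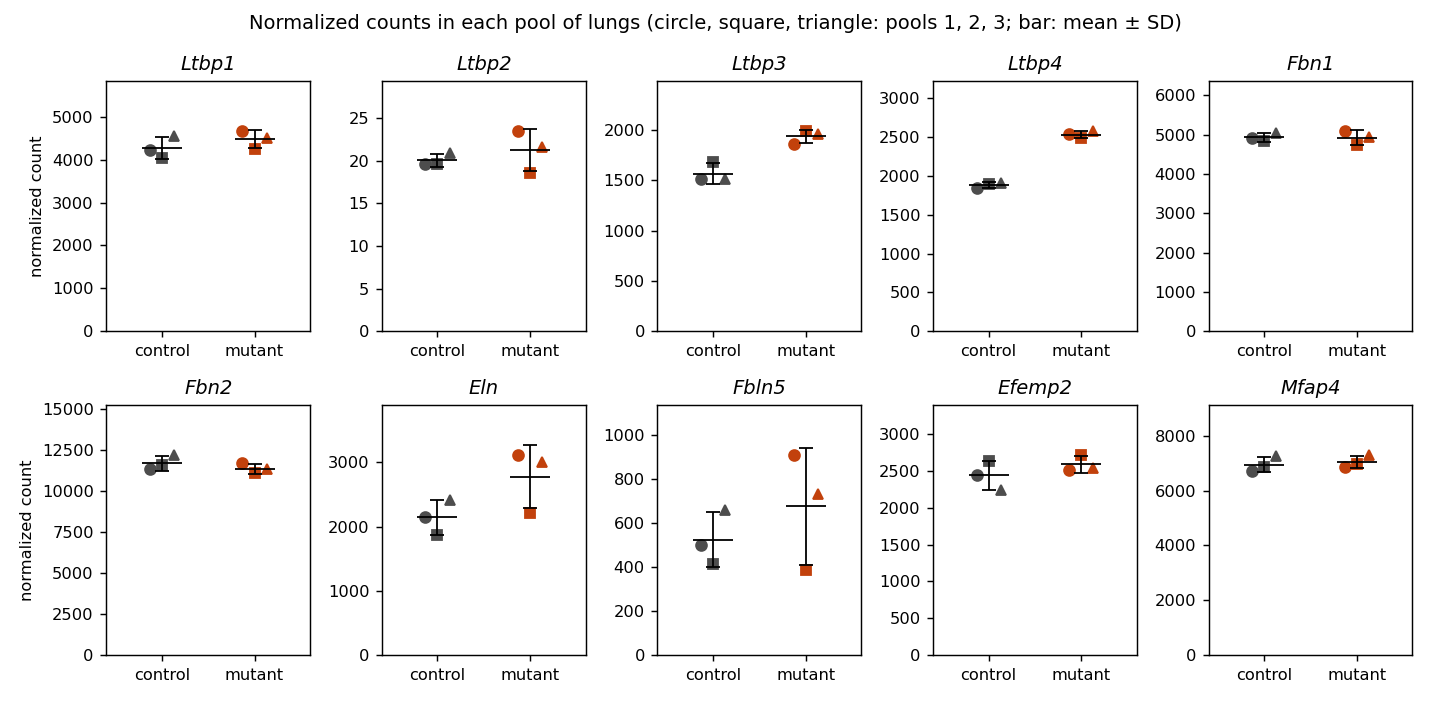
Normalized counts (vertical axis, from 0) of the 10 genes in 3 control and 3 mutant pools, with circles, squares and triangles for pools 1, 2 and 3 and the bar for the mean ± SD. The groups are separate for *Ltbp3* and *Ltbp4* and overlap for the other 8 genes, and the squares (pools 2) are the lowest points of both groups for *Eln* and *Fbln5*.

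The remaining LTBPs overlapped between the groups. *Ltbp1*, which encodes another binding protein of latent TGF-β, had 4235, 4039 and 4540 normalized counts in the control pools, against 4665, 4244 and 4514 in the mutant pools, a log2 difference of 0.07 (standard error 0.05). *Ltbp2*, whose protein binds fibrillin and fibulin-5 and not latent TGF-β, was near the lower end of measurement, at 19.6, 19.6 and 20.9 in control and 23.5, 18.6 and 21.6 in mutant pools. Its log2 difference of 0.07 had a standard error of 0.24 and a 95% interval from -0.45 to 0.60, so a change of the size seen for *Ltbp4* was not detectable at this depth.

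The sequences before the gene starts of *Ltbp4*, *Ltbp3* and *Ltbp1* are shown because the first 2 of these genes were higher in mutant pools and the third, a close relative, overlapped. They come from RefSeq on GRCm38.p6 and cover 250 bases before to 50 bases after an annotated start. Of the 10 genes, 7 have such an entry, and *Fbn2*, *Eln* and *Mfap4* do not. Each line runs 5′ to 3′ on the strand of the gene, and capitals mark GGGCGG (the GC box bound by SP1-type factors) or TGANTCA (the AP-1 site) on either strand, where CCGCCC is the GC box of the other strand. *Ltbp4* has an upstream start and 2 internal starts whose windows nearly coincide, so 1 of the internal windows is shown.
Ltbp4 upstream start, chr7:27337563-27337862, minus strand: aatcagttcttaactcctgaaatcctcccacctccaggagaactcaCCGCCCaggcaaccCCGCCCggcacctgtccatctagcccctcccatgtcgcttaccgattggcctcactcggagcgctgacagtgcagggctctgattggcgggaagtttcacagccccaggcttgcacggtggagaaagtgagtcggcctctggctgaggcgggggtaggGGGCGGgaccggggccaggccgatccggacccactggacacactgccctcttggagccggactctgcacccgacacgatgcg
Ltbp4 internal start, chr7:27333599-27333898, minus strand: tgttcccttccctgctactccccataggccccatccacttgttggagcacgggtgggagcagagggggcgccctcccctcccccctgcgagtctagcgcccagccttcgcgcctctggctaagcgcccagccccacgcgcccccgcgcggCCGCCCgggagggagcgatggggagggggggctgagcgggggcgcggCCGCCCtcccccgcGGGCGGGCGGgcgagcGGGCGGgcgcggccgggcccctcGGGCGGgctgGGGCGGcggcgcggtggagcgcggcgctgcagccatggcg
Ltbp3, chr19:5740650-5740949, plus strand: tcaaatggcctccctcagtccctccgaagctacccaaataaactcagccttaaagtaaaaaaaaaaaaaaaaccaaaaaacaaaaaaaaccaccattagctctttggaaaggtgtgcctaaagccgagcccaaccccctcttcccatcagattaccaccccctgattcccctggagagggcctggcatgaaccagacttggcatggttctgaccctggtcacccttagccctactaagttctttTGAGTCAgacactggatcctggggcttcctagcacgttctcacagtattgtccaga
Ltbp1 upstream start, chr17:75005279-75005578, plus strand: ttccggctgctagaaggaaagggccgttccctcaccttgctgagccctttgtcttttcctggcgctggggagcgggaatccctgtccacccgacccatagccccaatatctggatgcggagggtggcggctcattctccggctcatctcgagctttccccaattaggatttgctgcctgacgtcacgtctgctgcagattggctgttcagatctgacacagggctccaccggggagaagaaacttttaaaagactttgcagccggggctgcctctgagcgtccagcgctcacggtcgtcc

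The GC box matched 3 times in the upstream and 7 times in the internal *Ltbp4* window shown (9 times in the other internal window, of 81.3% GC) and 0 times in the *Ltbp3* and *Ltbp1* windows shown. At least 1 match was found in 35.6% of all 32817 RefSeq start windows of this length, where the median GC content was 52.7%. The GC content was 80.3% in the internal *Ltbp4* window shown, which is above 99.1% of all windows, and 48.0% in that of *Ltbp3*. The AP-1 site matched once in the *Ltbp3* window and in 7.8% of all windows. Its first base lies 6 bases before the *Ltbp3* start, and the site runs across that start. *Ltbp4* and *Ltbp3* shared neither motif in the windows shown. TATAAA was found in 0 of the windows of the 7 genes and in 13.6% of all windows. These matches are letters in a window, and no binding was measured.

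The fibrillins, which build the microfibril itself, had close to the same normalized count in both groups. *Fbn1* had 4923, 4828 and 5053 normalized counts among controls and 5091, 4725 and 4952 among mutants. Its log2 difference was 0.00 to 2 decimals (standard error 0.04), with a 95% interval from -0.10 to 0.09. *Fbn2*, the fibrillin known for its embryonic expression, had 11293, 11560 and 12185 in control pools, compared with 11669, 11052 and 11290 in mutants, a log2 difference of -0.04 (standard error 0.04) with an interval from -0.14 to 0.05. The groups overlapped for both genes.

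*Eln* and *Fbln5* were higher in the mean of the mutant pools, with wide spread. *Eln*, which encodes tropoelastin, had 2145, 1865 and 2420 normalized counts in control pools 1 to 3, against 3120, 2219 and 3000 in mutant pools 1 to 3. Mutant pool 2 lay below control pool 3, so the groups overlapped, although 2 of the 3 mutant pools lay above every control pool. The means were 2143 ± 278 and 2780 ± 489 (SD, n = 3), a log2 difference of 0.37 with a standard error of 0.12. *Fbln5* encodes fibulin-5, which binds elastin and integrins and is needed for elastic fibre assembly. It had 498, 414 and 658 normalized counts in the control pools, against 909, 384 and 732 in the mutant pools, so that the lowest and the highest of the 6 values were both mutant pools. Its log2 difference was 0.30 with a standard error of 0.27, and leaving out mutant pool 1 gave 0.05 while leaving out mutant pool 2 gave 0.67. For *Eln* the same range was 0.27 (without control pool 2) to 0.52 (without mutant pool 2).

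The other 2 genes of fibre assembly overlapped between the groups. *Efemp2* encodes fibulin-4, which brings lysyl oxidase to tropoelastin, and had 2442, 2637 and 2243 normalized counts in control and 2511, 2722 and 2546 in mutant pools (log2 difference 0.09, standard error 0.06). *Mfap4*, a microfibril-associated glycoprotein, had 6725, 6849 and 7250 among controls and 6867, 6976 and 7306 among mutants (log2 difference 0.02, standard error 0.04).

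Over the 10 genes the median log2 difference was 0.08, against -0.002 over all 17168 tested genes, with 8 higher and 2 lower means on the log2 scale. In the limma fit over all tested genes 2 of the 10, *Ltbp3* and *Ltbp4*, had an adjusted p under 0.05, which 0.501% of all tested genes reached. *Ltbp4* kept this call in 14 of 18 alternatives and lost it without limma's trend, under scaling to mesenchymal markers and without control pool 1 or mutant pool 3. *Ltbp3* kept it in 7 of the 18, and lost it also with a pseudocount of 0.1, with a stricter or no filter, with edgeR, and without mutant pool 1, mutant pool 2 or both pools numbered 2. At an unadjusted p under 0.05, 3 of the 10 were higher and 0 lower, against 6.67% and 6.89% of all tested genes. The groups were separate with mutant pools higher for 2 of the 10 and with mutant pools lower for 0 of the 10, against 9.77% and 10.5% of all tested genes. These counts come from the comparison known when the genes were chosen, and nothing is read from them.

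**Figure D2:**
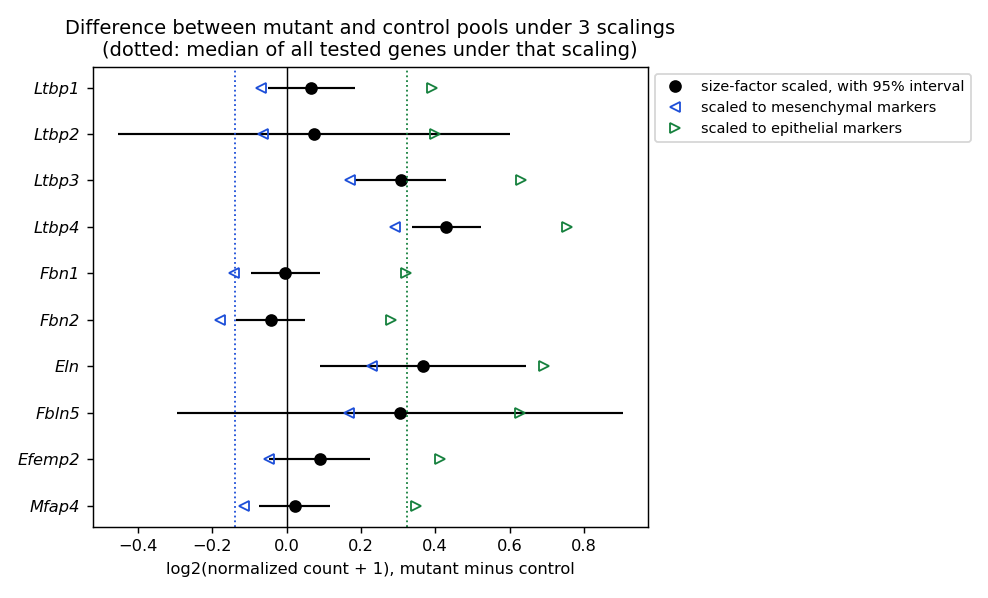
Log2 difference (mutant minus control, on log2 of the normalized count + 1) of the 10 genes, with black points and lines for the deposited scaling and its 95% interval, and open triangles for libraries scaled to mesenchymal (left-pointing) or epithelial (right-pointing) markers. The dotted lines at -0.14 and 0.32 are the medians of all tested genes under those scalings, and *Ltbp3*, *Ltbp4*, *Eln* and *Fbln5* lie right of 0 under all 3 scalings.

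Scaling to a marker list adds the same shift to every gene, so the sign of a difference near 0 is set by the reference. When each library was scaled to the mesenchymal markers, which were themselves higher in mutant pools, the median of all tested genes moved to -0.14. *Ltbp4* (0.29), *Eln* (0.23), *Ltbp3* (0.17) and *Fbln5* (0.17) kept a positive log2 difference, while *Ltbp1* (-0.07), *Ltbp2* (-0.06), *Efemp2* (-0.047) and *Mfap4* (-0.11) changed sign, and 0 of the 10 genes had an adjusted p under 0.05. Scaled to the epithelial markers, which were lower in mutant pools, the median of all genes moved to 0.32 and all 10 genes were positive, *Fbn1* (0.32) and *Fbn2* (0.28) included. Relative to the median of all genes the order of the 10 genes does not depend on either scaling, and *Ltbp4* stood 0.43 above that median. Of the 18 mesenchymal markers 16 were higher and 2 lower in the mutant mean of log2 values. Their median log2 difference was 0.10, with a range from -0.02 to 0.34. The marker sums of endothelium (15032 to 17112 in control, 17596 to 18248 in mutant pools) and mesothelium (8492 to 9009, 9687 to 10274) were higher too. Those of heart muscle (1353 to 1513, 1118 to 1220) were lower, and those of cartilage, neurons, macrophages and erythroid cells overlapped. The part of the mesenchymal, smooth muscle, endothelial and mesothelial shares of the lungs in the differences of the 10 genes was not tested.

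The shares of *Ltbp4* and *Ltbp1* within the LTBP family did not overlap between the groups, as the level of *Ltbp4* already shows. Of the summed LTBP level per kilobase of merged exons, *Ltbp4* made up 33.5%, 34.1% and 33.2% in the controls, against 37.9%, 38.3% and 38.4% in the mutants. *Ltbp1* made up 46.6%, 44.0% and 47.8% of it in the controls, against 42.1%, 39.6% and 40.6% in the mutants. The groups were separate for both shares, which do not depend on the size factor. Their size, and that of the fibrillin ratio below, depends on the gene model. By the longest coding transcript the control means were 640 per kb for *Ltbp1* and 349 for *Ltbp4*, against 400 and 291 by merged exons. *Ltbp3* stood at 18.7% to 21.6% in control and 19.8% to 21.9% in mutant pools, and *Ltbp2* below 0.3% in every pool. Between the fibrillins, *Fbn2* was 2.11, 2.20 and 2.21 times *Fbn1* per kilobase in control pools, against 2.10, 2.15 and 2.09 times in mutant pools, with overlapping groups.

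Levels of different genes were compared per kilobase of merged exons, using the GENCODE M21 annotation of GRCm38. In control pools *Mfap4* was highest, with 3612 ± 143 normalized counts per kb (SD, n = 3). It was followed by *Fbn2* (884 ± 34.6 per kb), *Efemp2* (644 ± 52.0), *Fbn1* (407 ± 9.34) and *Ltbp1* (400 ± 23.6). Lower levels per kb were those of *Ltbp4* (291 ± 5.63), *Eln* (265 ± 34.3), *Ltbp3* (173 ± 11.2), *Fbln5* (75.7 ± 17.9) and *Ltbp2* (2.45 ± 0.09). The ranges of neighbours overlapped for *Fbn1* with *Ltbp1* and for *Ltbp4* with *Eln*, and were separate for the other neighbours in this order. In mutant pools *Ltbp4* reached 392 ± 7.29 per kb and stood beside *Fbn1* (406 ± 15.3) and *Ltbp1* (418 ± 19.9), with overlapping ranges, and the highest mutant pool of *Eln* (385 per kb) reached the lowest of *Ltbp4*.

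**Figure D3:**
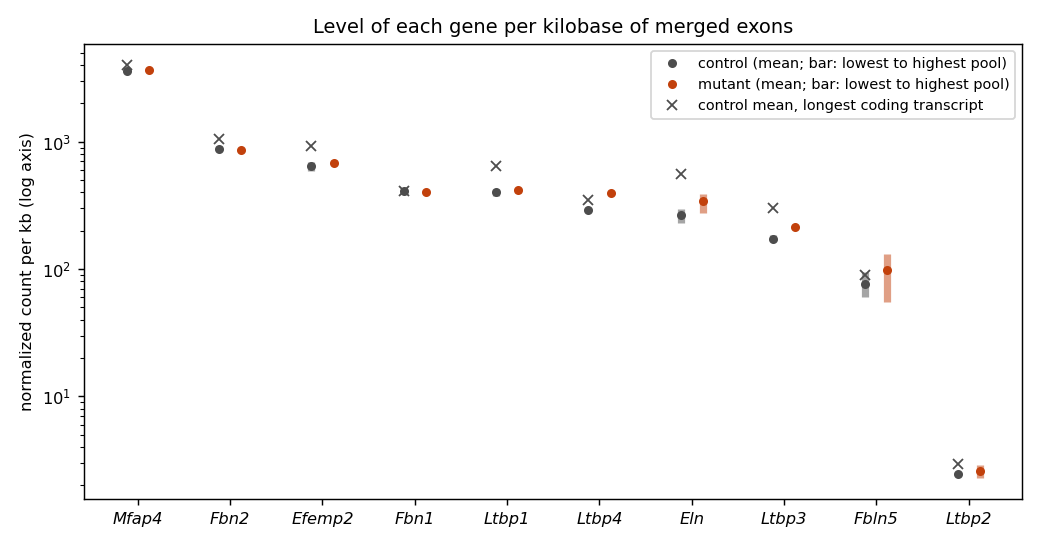
Normalized count per kilobase of merged exons (vertical axis, logarithmic) of the 10 genes, ordered by the control mean, with points for group means, bars from the lowest to the highest of 3 pools, and crosses for the control mean per kb of the longest coding transcript. *Mfap4* stands highest at 3612 per kb and *Ltbp2* lowest at 2.45 per kb in control pools.

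The order in the middle depended on the gene model. Merged exons are 8098 bases long for *Eln* and its longest coding transcript 3853 bases, so that by the transcript *Eln* (556 per kb) ranked above *Fbn1* (412) and *Ltbp4* (349) and below *Ltbp1* (640). *Mfap4*, *Fbn2* and *Efemp2* stayed the highest and *Ltbp3*, *Fbln5* and *Ltbp2* the lowest under both lengths.

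The 10 genes lie on 8 chromosomes of GRCm38. *Ltbp4* lies on chromosome 7 from 27305136 to 27337692 on the minus strand with 35 merged exons. *Ltbp3* lies on chromosome 19 from 5740904 to 5758532, and *Efemp2* on the same chromosome from 5473954 to 5482517. *Ltbp2* and *Fbln5* share chromosome 12, at 84783212 and 101746565. *Eln* lies on chromosome 5 from 134702593 to 134747323. Exons of other genes on the opposite strand cover 20.1% of the merged exons of *Fbn1* (*Gm9913*), 9.34% of *Ltbp2* (*D030025P21Rik*), 4.63% of *Mfap4* (*Mapk7*), 4.57% of *Efemp2* (*Mus81*), 3.3% of *Eln* (*Gm30003*) and 0.98% of *Fbn2* (*Gm26507*). The strand setting of the count is not given in the sources used here, so reads in these stretches cannot be assigned with certainty. *Ltbp4*, *Fbln5* and *Ltbp1* have no exon overlap in this annotation.

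The pools of one genotype differed from each other most for *Fbln5* and *Eln*. The deviation of *Fbln5* from its group mean was -0.31 in control pool 2 and 0.36 in control pool 3 on the log2 scale, and -0.72 in mutant pool 2 and 0.52 in mutant pool 1. *Eln* deviated in the same direction in these pools, by -0.19, 0.18, -0.31 and 0.18. *Ltbp4* deviated by -0.03 to 0.03 in all 6 pools.

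**Figure D4:**
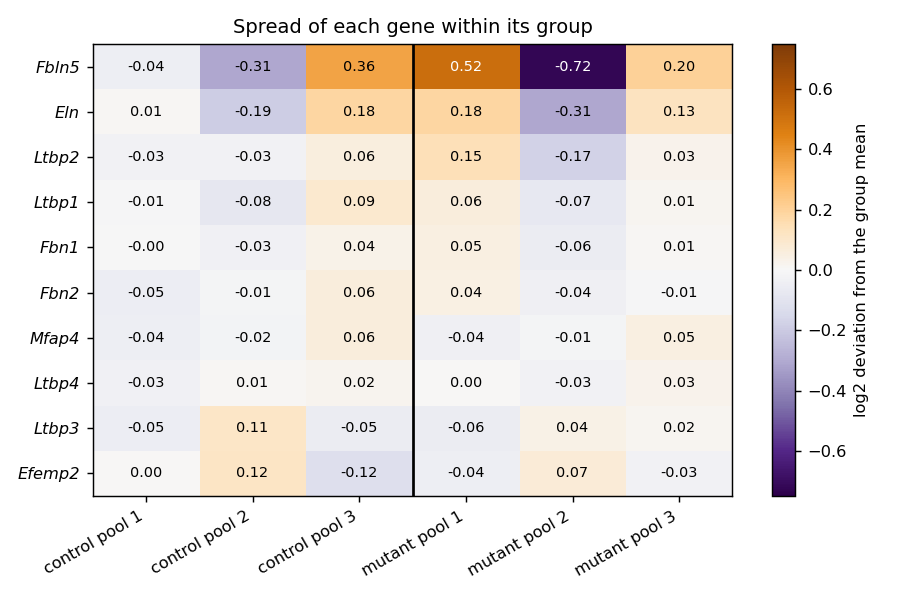
Deviation of log2(normalized count + 1) from the mean of the own group, for the 10 genes (rows) in 6 pools (columns), with orange above and purple below the mean. *Fbln5* and *Eln* are below their group mean in both pools numbered 2, at -0.31 and -0.19 in the control and -0.72 and -0.31 in the mutant pool, and *Efemp2* is above it in both.

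Over the 6 pools, with the group means taken off, the deviations of *Eln* and *Fbln5* had a Pearson r of 0.98. Those of *Fbn1* and *Fbln5* had 0.99 and those of *Fbn1* and *Eln* 0.97. These values are among the highest of all pairs of members, and the deviations of *Fbn1* were small, from -0.058 to 0.049. *Efemp2* ran the other way, with an r of -0.89 to *Eln* and -0.97 to *Ltbp1*, and so did *Ltbp3*, with -0.74 to both *Eln* and *Fbn1*. These are descriptions over 6 points that share library, size factor and dissection. The summed counts of 10 cartilage markers had the same order within each group as *Eln*, at 5782, 5442 and 7271 in control pools 1 to 3, against 6751, 5233 and 6144 in mutant pools 1 to 3. The erythroid marker sums had this order too, at 55740, 53794 and 58802 in control and 63933, 51096 and 62442 in mutant pools, from 6 of 8 listed genes, of which *Hba-a1* was at 0. The part of dissected tissue or blood in the spread of *Eln* and *Fbln5* was not tested. Smooth muscle *Acta2* had 4093, 4381 and 3311 normalized counts in control pools, compared with 5255, 4613 and 5141 in mutants, the reverse order of *Eln* among the control pools and the same order among the mutant pools. The summed smooth muscle markers had these orders too. Among 11457 other genes with a mean of at least 100, the deviations most like those of *Eln* were in *E130309D14Rik* (r = 0.9981), *Pnmal2* (0.998) and *Rec8* (0.9978). Those most like *Ltbp4* were in *Stk38* (0.9947), *Foxj3* (0.9924) and *Lipa* (0.9873), over these small deviations of *Ltbp4*.

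Other genes of fibre assembly and TGF-β storage were described from a list of 89 genes, of which 87 are in the table and 86 were tested. In the limma fit 1 of the 86 rose and 0 fell at an adjusted p under 0.05, a threshold that 0.501% of all tested genes passed. This gene was *Aebp1*, which encodes a collagen-binding matrix protein. Its normalized count was 1513, 1501 and 1447 in the control pools, against 1800, 1832 and 1818 in the mutant pools, a log2 difference of 0.29 (standard error 0.04, limma adjusted p = 0.0345), with separate groups. The call was lost when control pool 1, any 1 mutant pool or both pools numbered 2 were left out, without limma's trend and under scaling to the mesenchymal markers (log2 difference 0.15), with an adjusted p from 0.000668 to 0.341 over all alternatives. At an unadjusted p under 0.05, 20 of the 86 were higher and 2 lower in mutant pools, against 6.67% and 6.89% of all tested genes. The median log2 difference of the list was 0.08, and since scaling to the mesenchymal markers moves all genes down by more than this, its sign turns there.

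**Figure D5:**
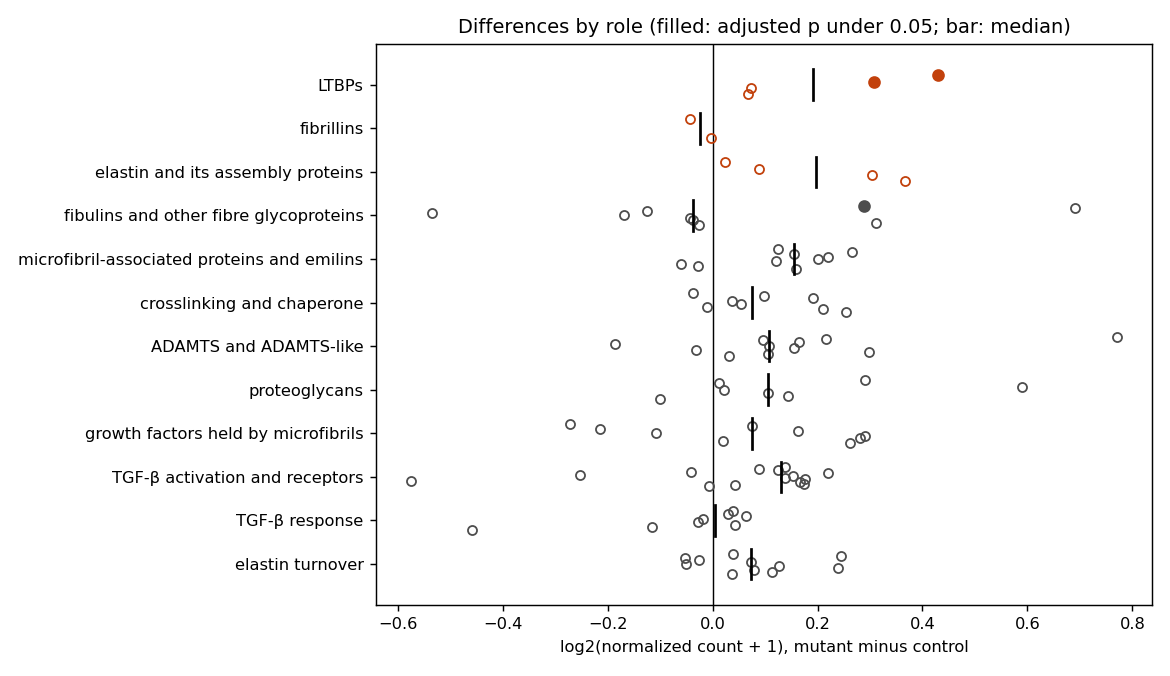
Log2 difference (mutant minus control, horizontal axis) of the 10 genes (orange, top 3 rows) and of 86 other genes grouped by role (grey), with a vertical bar for the median and filled points for an adjusted p under 0.05. The medians are 0.19 for the LTBPs, -0.02 for the fibrillins, 0.16 for microfibril-associated proteins and emilins and 0.005 for TGF-β response genes.

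Higher and lower means are counted by role on the log2 scale. Of 9 microfibril-associated proteins and emilins, 7 had a higher and 2 a lower mean in mutant pools, with 0 past the adjusted threshold. *Emilin1*, an elastin-binding glycoprotein that restrains TGF-β maturation, had 5059, 4909 and 5448 normalized counts in control and 5902, 5781 and 6025 in mutant pools (log2 difference 0.20, limma adjusted p = 0.0987). *Mfap2* of the microfibril surface had 5499, 5579 and 5240 and then 5955, 5933 and 6318 (0.16, adjusted p = 0.149). Both genes had separate groups.

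Of 8 crosslinking and chaperone genes, 6 had a higher mean of log2 values in mutant pools and 0 passed. *Fkbp10*, an endoplasmic reticulum chaperone of collagen and tropoelastin, had 3356, 3388 and 3178 normalized counts in control and 3664, 3849 and 3817 in mutant pools (log2 difference 0.19, limma adjusted p = 0.0922). *Lox*, the lysyl oxidase that crosslinks elastin, had 3188, 3587 and 2701 in control and 3616, 4108 and 3523 in mutant pools (0.25, adjusted p = 0.263). The groups of *Lox* overlapped between control pool 2 and mutant pool 3.

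Of 9 tested fibulins and other fibre glycoproteins, 3 had a higher and 6 a lower mean, with *Aebp1* as the gene that passed. Of 11 ADAMTS and ADAMTS-like genes, several of which act on fibrillin microfibrils, 9 had a higher mean and 0 passed, with *Thsd4* at 1685 ± 27.0 in control and 1961 ± 149 in mutant pools (SD, n = 3, limma adjusted p = 0.146). *Papln* of the same group was low, at 28.8 ± 3.86 and 52.1 ± 18.8 normalized counts (adjusted p = 0.259). Of 7 proteoglycans 6 had a higher mean of log2 values and 0 passed. *Hapln1* had 868 ± 85.3 and 1062 ± 126 (adjusted p = 0.214), and *Lum* 601 ± 255 and 840 ± 61.4 (adjusted p = 0.38), where control pool 3 alone was at 312.

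Of the 9 growth factors that microfibrils can hold, 6 had a higher and 3 a lower mean, and 0 passed. *Tgfb1* had 909, 949 and 888 normalized counts among controls and 1076, 1077 and 1139 among mutants, with separate groups (log2 difference 0.26, limma adjusted p = 0.071). *Bmp7* had 704, 701 and 726 in control and 610, 632 and 594 in mutant pools, lower in every mutant pool (-0.21, adjusted p = 0.146). Of 14 tested genes of TGF-β activation and reception, 10 had a higher mean and 0 passed, with *Itga5* at 3075 ± 87.8 and 3384 ± 55.9 (adjusted p = 0.172) and *Thbs1* at 9067 ± 1589 and 7537 ± 256 (adjusted p = 0.303).

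Of 8 genes known to respond to TGF-β, 4 had a higher and 4 a lower mean, 0 passed at either threshold and the median log2 difference was 0.005. *Ctgf*, a matricellular protein gene, had 387, 316 and 469 normalized counts in control pools, compared with 389, 313 and 371 in mutants, with overlapping groups (log2 difference -0.12, limma adjusted p = 0.759). Of 11 tested genes of elastin turnover, 8 had a higher mean and 0 passed. The inhibitors *Timp1* (299 ± 6.82 and 353 ± 20.4, adjusted p = 0.214) and *Timp2* (4433 ± 70.8 and 4837 ± 144, adjusted p = 0.194) had separate groups with the mutant pools higher. The elastase gene *Mmp12* was at 0 in 5 of the 6 pools and was not tested.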

How the data were processed

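RNA of whole lungs was extracted with the RNeasy Mini Kit from 3 control and 3 mutant pools and sequenced on the BGISEQ-500 platform. The submitters' processing notes name Trim Galore, HISAT2, featureCounts, DESeq2 and the build mm10, and versions, annotation and strand setting are not given in the sources used here. The authors deposited 1 table of signal values, which are normalized counts, beside their mean of the 6 values. Their own comparison (log2 fold changes with errors, a test score and p-values), also deposited by the authors, was not used. Dividing each library's values by 1 step gave whole reads for 100% of them (tolerance 0.05) in each of the 6 libraries.

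Genes that reached 1 normalized count in 3 or more libraries were compared on log2(normalized count + 1) with limma 3.58.1 in R 4.3.3 (eBayes with trend, Benjamini-Hochberg adjustment over 17168 genes, threshold 0.05). On this scale the change of low genes is understated. P-values weigh the difference between the groups against the spread between pools, with the variance of each gene moderated over all tested genes. The fit was tested on simulated data with planted changes larger than those of *Ltbp3* and *Ltbp4*, so that test does not cover differences of their size. The alternatives were limma without the trend, upper-quartile scaling, a pseudocount of 0.1, other filters, a replicate block, leaving out pools, edgeR 4.0.16 and DESeq2 1.42.0 on the recovered reads, and scaling to marker lists. Those chosen after seeing the data were edgeR without control pool 3, leaving out both pools numbered 2, and transcript length in place of merged exons.

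The members and all lists were chosen with earlier results of these data known. The text names the 10 members, *Rptor*, in each role the genes with an adjusted p under 0.05 or otherwise up to 2 genes with the lowest p, the 3 genes most like *Ltbp4* and *Eln*, and marker genes for a check of the tissue. Some values that this rule covers are not reported here. *Mmp12*, *Xist*, *Ddx3y* and *Uty* were named after their values were seen, and markers of endothelium, mesothelium, heart muscle, neurons and macrophages were listed too. The summed counts of these were 15032 to 17112, 8492 to 9009, 1353 to 1513, 2275 to 2445 and 1922 to 2875 in control pools and 17596 to 18248, 9687 to 10274, 1118 to 1220, 1902 to 2406 and 2551 to 2705 in mutant pools. Positions come from GENCODE M21, in which 93.2% of tested genes had 1 match by symbol.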

Additional observations from a re-analysis of the deposited data

How the results depend on the processing

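The positive log2 difference of *Ltbp3*, *Ltbp4*, *Eln* and *Fbln5* was kept in all 18 alternatives, with ranges of 0.17 to 0.63, 0.29 to 0.76, 0.23 to 0.69 and 0.05 to 0.67. *Ltbp4* had an adjusted p under 0.05 in 14 of the 18 and *Ltbp3* in 7. Of the 10 members 2 passed in the limma fit. The count was 1 with a pseudocount of 0.1, with at least 10 in every library, without a filter, with edgeR and without both pools numbered 2, 0 without the trend, 0 scaled to mesenchymal and 9 scaled to epithelial markers. The number of all genes called (86) became 8 without the trend, 278 with DESeq2, 131 and 9918 under these 2 scalings, 545 with edgeR without control pool 3 and 21 without both pools numbered 2. For the wider list (1 gene) these counts were 0, 5, 0, 62, 8 and 0. The median log2 difference of the members was -0.055 and 0.407 under the 2 scalings. Scaling adds 1 shift to every gene of a library by construction, and for the other settings the cause was not tested.

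Leaving out 1 pool gave 1 to 464 genes called, 0 to 7 genes of the wider list, 0 to 3 members and a median of 0.043 to 0.133. The count of all genes was 1 without control pool 1 or mutant pool 3, 12 without mutant pool 1, 18 without mutant pool 2, 167 without control pool 2 and 464 without control pool 3. No member passed without control pool 1 or mutant pool 3, and 3 passed without control pool 3.

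With the replicate number as a block, 71 genes, 1 gene of the wider list and 3 members passed, *Eln* being the third, and the median was 0.082. Same-numbered pools hold different embryos. Their deviations over 11458 genes had correlations of -0.032, 0.199 and 0.077, and not every pool correlated best with its own number. Deviations taken from the mean of so few pools constrain each other, so these values cannot decide whether the numbers pair the pools. Counts of about 20 limit *Ltbp2*.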
